A study of Mus musculus with 14 samples.

Results

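Keratinocytes copying their DNA were described in single-cell transcriptomes of mouse back skin epithelium. A cell was counted as replicating, and is said here to belong to the replication class, when at least 4 of 9 replication genes (Mcm3, Mcm5, Mcm6, Pcna, Gins2, Hells, Uhrf1, Tipin and Ccne2) had 1 or more unique molecular identifiers (UMIs, counts of captured RNA molecules) and fewer than 3 of 7 genes of mitosis (Top2a, Ube2c, Cdk1, Ccnb1, Cenpf, Birc5 and Nusap1) did. Of 8396 cells kept, 184 met this rule, 140 in the young and 44 in the aged library. A kept cell had at least 1000 UMIs, at least 500 genes and at most 10% of its UMIs in mitochondrial genes. Cells with 3 or more of the 7 mitosis genes formed the mitosis class (378 cells), and the 7834 remaining cells are called other cells. The members were thus chosen by the detected UMIs of these 16 genes, so the levels of these genes are a description and they enter no count.

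The study compared female mice of 2 months (young) and 24 months (aged). Back skin was digested with trypsin, and lineage-negative, integrin α6-positive epithelial cells were sorted by flow cytometry for 1 10x Genomics 3' library per age. Bulk RNA-seq covered hair follicle stem cells (HFSC: lineage-negative, integrin α6-high, CD34-positive, Sca1-negative) and epidermal stem cells (EpdSC: lineage-negative, integrin α6-high, CD34-negative, Sca1-positive), with 2 libraries for each population and age. No transgene or drug treatment is named for these groups, and the labels do not say how many animals a library holds.

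A cell that commits to division first loads the ring-shaped MCM helicase onto replication origins. Cyclin-dependent kinases then activate the helicase, and polymerases, the sliding clamp PCNA and ligases copy both strands while histones and methylation marks are restored behind the fork. Most of these genes are switched on together by E2F transcription factors late in G1 phase, and genes of mitosis follow through a separate promoter element, the cell cycle homology region (CHR). In skin, dividing cells lie in the basal layer of the epidermis and in growing hair follicles, and keratinocytes that enter the suprabasal layers stop dividing as they differentiate.

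Promoters of some of the replication genes that define the class carry the first of these elements, and the sequences below show where it lies. Exact matches of TTTCCCGC or TTTGGCGC on either strand, written here as E2F-type, were searched from 250 bases before to 50 bases after the start of each gene in RefSeq's GRCm38.p6 promoters. Of the 9 replication genes of the rule, 6 had a promoter in the table and 4 of these held a match (Mcm3, Mcm5, Mcm6 and Hells), while Pcna and Uhrf1 held none. Gins2, Tipin and Ccne2 were not matched in the table. The 250 bases before the start are shown 5′ to 3′ on the gene's own strand for 3 replication genes, with E2F-type matches in capitals, and for the mitosis gene Cdk1, with CHR-type matches (TTTGAA on either strand) in capitals. Mcm5 lies at chr8:75109259-75109508 on the + strand with its match 149 bases before the start. Mcm6 lies at chr1:128359706-128359955 on the - strand with matches 110 and 47 bases before the start. Hells lies at chr19:38930740-38930989 on the + strand with its match 62 bases before the start. Cdk1 lies at chr10:69352913-69353162 on the - strand, and the first of its 2 matches is 71 bases before the start.
Mcm5: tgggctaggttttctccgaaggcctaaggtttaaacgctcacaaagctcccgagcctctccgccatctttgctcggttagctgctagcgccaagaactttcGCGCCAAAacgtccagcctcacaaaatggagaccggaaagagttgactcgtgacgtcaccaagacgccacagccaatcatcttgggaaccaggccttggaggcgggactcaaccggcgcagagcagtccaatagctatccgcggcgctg
Mcm6: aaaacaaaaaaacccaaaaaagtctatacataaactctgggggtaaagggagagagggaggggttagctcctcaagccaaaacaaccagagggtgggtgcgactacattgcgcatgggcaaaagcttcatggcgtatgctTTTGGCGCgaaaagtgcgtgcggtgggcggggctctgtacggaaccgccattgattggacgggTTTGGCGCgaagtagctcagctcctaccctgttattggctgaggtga
Hells: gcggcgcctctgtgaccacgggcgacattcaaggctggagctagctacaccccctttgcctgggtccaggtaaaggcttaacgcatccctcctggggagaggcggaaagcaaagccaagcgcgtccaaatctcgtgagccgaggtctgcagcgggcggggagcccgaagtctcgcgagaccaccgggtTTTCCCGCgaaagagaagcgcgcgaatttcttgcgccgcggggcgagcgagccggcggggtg
Cdk1: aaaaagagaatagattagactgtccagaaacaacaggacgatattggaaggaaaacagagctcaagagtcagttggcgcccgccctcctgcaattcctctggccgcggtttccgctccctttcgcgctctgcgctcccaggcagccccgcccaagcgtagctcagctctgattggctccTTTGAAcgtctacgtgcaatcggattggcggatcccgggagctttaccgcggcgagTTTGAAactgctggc

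Across 27025 RefSeq promoters of this length 1.80% held an E2F-type match, and among the genes compared below 190 of 5436 with a promoter did (3.50%). Of 84 replication genes with a promoter, from the rule and the lists described below, 20 held one (23.8%). The share was 5 of 13 among genes of origin licensing and the helicase (38.5%), 5 of 21 among genes of the fork (23.8%) and 1 of 19 among genes of nucleotide supply (5.26%). Genes of G2 and mitosis held none in 27 promoters, and 22 of those 27 held the CHR-type match (81.5%), against 20.2% of all promoters. Of the 7 mitosis genes of the rule 4 held the CHR-type match (57.1%), and Ccnb1, Birc5 and Nusap1 did not. Replication genes of the rule held the CHR-type match in 0 of 6 promoters, genes of origin licensing and the helicase in 5 of 13 (38.5%), chromatin copying in 4 of 13 (30.8%) and the 84 replication genes together in 14 (16.7%). A match is a stretch of letters, and no binding was measured.

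Replicating cells had more UMIs than other cells in both libraries, and the rule, which needs several detected genes, favors deep cells. The young library held 4045 kept cells with a median of 3918 UMIs, and the aged library 4351 cells with a median of 2302, from matrices of 737280 barcodes each. Replicating cells had a median of 5564 UMIs (1673 to 14075) and 1911 genes in the young library, and 3928 UMIs (1563 to 7523) and 1526 genes in the aged library. Other cells had medians of 3822 and 2247 UMIs. Of the kept barcodes 33 occurred in both libraries, and none of these was a replicating cell in either library. In the young library the 140 cells comprised 60 with 4 of the 9 replication genes, 32 with 5, 20 with 6, 20 with 7, 7 with 8 and 1 with all 9. The 44 aged cells comprised 18 with 4 genes, 16 with 5, 6 with 6, 3 with 7 and 1 with 8. Just below the threshold, 110 young cells (median 5111 UMIs) and 45 aged cells (median 2995 UMIs) had 3 replication genes. A further 61 young and 27 aged cells had 4 or more replication genes but 3 or more mitosis genes and belong to the mitosis class.

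The replicating cells bore the keratins of basal keratinocytes. Levels are given as counts-per-million values (CPM), from the UMIs of a gene over all UMIs of the cells of a class in 1 library. Krt14, a keratin of the basal layer, stood at 10301 CPM in young replicating cells against 9591 in other young cells, and at 23564 against 14453 CPM in the aged library. Its partner Krt5 stood at 4611 against 4517 CPM and at 5769 against 4481 CPM. Of 14 basal markers compared, none was 2-fold higher or lower in both libraries, and their median ratio to other cells was 0.997 in young and 1.12 in aged cells, against 1.01 in both libraries for all genes. Summed T cell markers stood at 7.36 and 11.5 CPM in young and aged replicating cells, melanocyte markers at 7.36 and 0 CPM and fibroblast markers at 9.81 and 0 CPM. All 5 Merkel cell markers were at 0 in both. The 10 Langerhans and myeloid markers summed to 80.9 CPM in young and 45.9 CPM in aged replicating cells, with 4 and 6 of the 10 at 0, and to 82.0 and 44.2 CPM in other cells.

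The share of cells in the replication class was 3.46% in the young library (140 of 4045, 95% interval 2.92 to 4.07) and 1.01% in the aged library (44 of 4351, 0.736 to 1.36). Intervals here are exact binomial (Clopper-Pearson) and cover counting error only, since each age is 1 library and no test between ages is possible. The share of cells that met it was higher in deeper cells of both libraries. Among cells of 1000 to under 2000 UMIs it was 0.645% young (2 of 310) and 0.0623% aged (1 of 1605). Among cells of 4000 to under 6000 UMIs it was 4.83% young (67 of 1386) and 4.96% aged (18 of 363). Within each of 5 bands of UMIs the intervals of the ages overlapped.

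With every cell thinned at random to 2000 UMIs, 36 of 3735 young cells (0.964%, 0.676 to 1.33) and 22 of 2746 aged cells (0.801%, 0.503 to 1.21) met the rule, and 310 young and 1605 aged cells with fewer UMIs were left out. At 3000 UMIs the shares were 2.23% young (67 of 3003, 1.73 to 2.83) and 2.43% aged (27 of 1112, 1.61 to 3.51). There 1042 young and 3239 aged cells were left out, so the cells compared are the deeper part of each library, and a smaller part of the aged one. Thinning to 1000 UMIs left out no cell and gave 8 young cells (0.198%, 0.0854 to 0.389) and 3 aged cells (0.0690%, 0.0142 to 0.201). At each of these depths the intervals of the ages overlapped, which is not a test of a difference. Few cells met the rule at 1000 UMIs, and unlike parts of the libraries were compared above it. The mitosis class held 3.91% of young cells (158) and 5.06% of aged cells (220), and at 2000 UMIs 3.29% (2.74 to 3.92) and 6.66% (5.76 to 7.66). At 3000 UMIs it held 4.36% (3.66 to 5.16) and 15.4% (13.3 to 17.6).

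**Figure D1:**
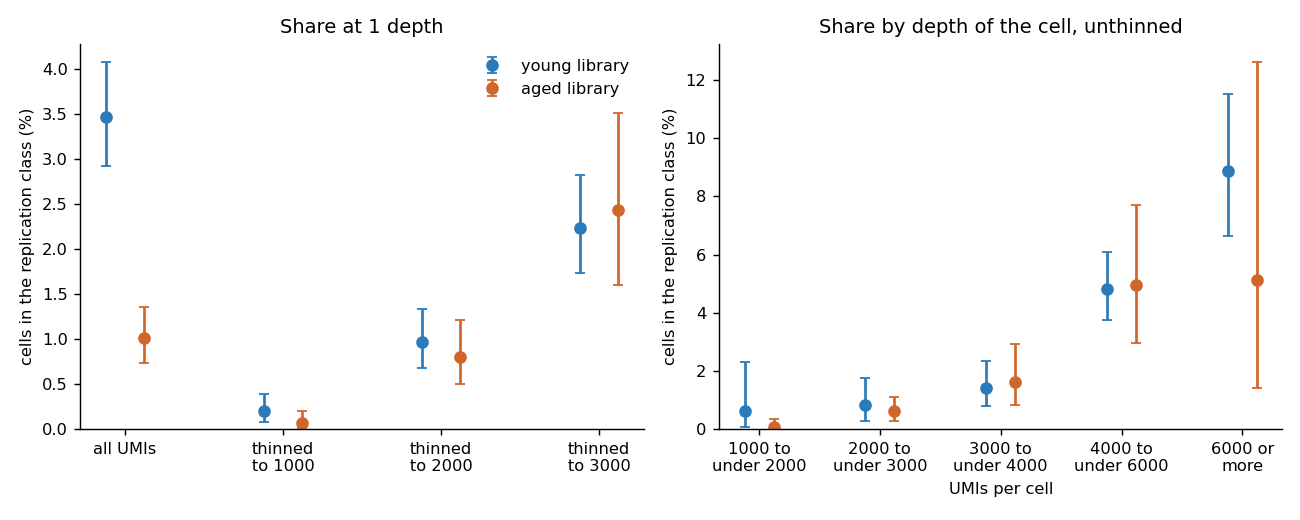
Share of kept cells in the replication class, in percent, with exact binomial 95% intervals, for the young (blue) and aged (orange) library. The left panel gives all UMIs and cells thinned to 1000, 2000 or 3000 UMIs, and the right panel gives unthinned cells by their UMI count. The unthinned shares of 3.46% and 1.01% stand apart, and at 3000 UMIs the shares are 2.23% and 2.43%.

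Without any detection rule, the 9 replication genes summed over all kept cells came to 234.1 CPM in the young and 193.4 CPM in the aged library, an aged-to-young ratio of 0.826 (0.784 to 0.871, exact counting interval). The 96 replication genes of 5 lists outside the rule came to 2897 and 2887 CPM, a ratio of 0.996 (0.982 to 1.01). The 7 mitosis genes came to 314.5 and 481.7 CPM, a ratio of 1.53 (1.48 to 1.59). The replicating cells held 27.7% of the UMIs of the 9 genes in the young and 14.6% in the aged library. Other cells held 53.8% and 65.0%, and the part that free RNA has in this was not tested.

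Each gene of the rule was higher in replicating than in other cells, as the choice of cells requires. Mcm5, Mcm6 and Mcm3, subunits of the helicase ring, stood at 145, 213 and 115 CPM in young replicating cells against 7.71, 23.7 and 7.05 CPM in other young cells. In the aged library the same genes stood at 212, 252 and 166 CPM against 7.36, 27.3 and 5.44 CPM. Gins2, part of the GINS complex that completes the active helicase, stood at 202 against 24.4 CPM in young and 195 against 15.2 CPM in aged cells. Pcna, the sliding clamp of the polymerases, stood at 205 against 35.9 CPM and 247 against 36.4 CPM.

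The other replication genes of the rule act on chromatin, fork protection and entry into S phase. Hells, a chromatin remodeller needed for DNA methylation, stood at 196 against 10.3 CPM in young and 258 against 12.4 CPM in aged cells. Uhrf1, which brings the maintenance methyltransferase to newly copied DNA, stood at 94.4 against 3.89 CPM and 155 against 3.43 CPM. Tipin, a fork protection factor, stood at 151 against 27.3 CPM and 229 against 30.1 CPM. Ccne2, a cyclin of the G1 to S transition, stood at 35.6 against 1.25 CPM and 74.6 against 2.52 CPM. The 7 mitosis genes, which the rule limits, summed to 104.2 CPM in young replicating cells against 33.0 CPM in other young cells. In the aged library they summed to 206.5 against 45.2 CPM. Of these, Cdk1, the kinase that drives mitosis, stood at 40.5 CPM in the young and 103 CPM in the aged replicating cells. Top2a, the topoisomerase that untangles copied chromosomes, stood at 38.0 and 68.8 CPM.

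Beyond the rule, the machinery of replication was high in the same cells as a group. Among 6997 genes with at least 10 CPM over all kept cells of each library, 150 (2.14%) were at least 2-fold higher in replicating than in other cells in both libraries and 100 (1.43%) at least 2-fold lower. Of the 96 replication genes in the 5 lists, 54 were compared, 40 of them were 2-fold higher in both libraries and none was lower. Their median ratio was 3.03 in young and 3.85 in aged cells, against 1.01 and 1.01 for all genes. The lists describe the same cell cycle phase as the rule, and genes of 1 pathway are not independent of the genes that chose the cells.

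Origin licensing and the helicase had 7 of 17 genes compared and 5 higher (Mcm2, Mcm4, Mcm7, Gmnn and Orc2). Mcm2, another helicase subunit, stood at 82.1 against 10.6 CPM in young cells (7.79-fold, 5.76 to 10.4) and 103 against 7.66 CPM in aged cells (13.5-fold, 7.58 to 22.8). Mcm4 and Mcm7, which complete the ring, were 5.84-fold and 5.03-fold higher in young and 10.6-fold and 3.91-fold higher in aged cells. Gmnn, which encodes geminin and blocks a renewed round of licensing once S phase has begun, stood at 114 against 18.2 CPM and 178 against 21.3 CPM. Both the licensing machinery and its inhibitor were thus high in the class.

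At the fork 14 of 15 genes compared were 2-fold higher in both libraries, out of 26 listed, with a median ratio of 3.62 in young and 4.38 in aged cells. Lig1, the ligase that joins Okazaki fragments, stood at 152 against 19.8 CPM in young cells (7.66-fold, 6.16 to 9.47) and 201 against 23.4 CPM in aged cells (8.58-fold, 5.84 to 12.3). Fen1, the nuclease that trims the flaps of these fragments, was 6.78-fold and 6.03-fold higher. Rpa2, a subunit of the protein that coats single-stranded DNA, was 5.34-fold and 5.19-fold higher, and Rfc5, a subunit of the clamp loader, 4.15-fold and 7.78-fold. The exception was Rnaseh2a, a subunit of the nuclease that removes ribonucleotides from DNA, at 72.3 against 44.6 CPM in young (1.62-fold) and 103 against 60.1 CPM in aged cells (1.72-fold).

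Of 12 chromatin copying genes compared, out of 15, 10 were higher. Slbp, which binds the stem-loop of histone messages, stood at 221 against 42.3 CPM in young cells (5.21-fold, 4.39 to 6.16) and 298 against 42.3 CPM in aged cells (7.04-fold, 5.18 to 9.41). The histone chaperone Asf1b was 14.2-fold (8.19 to 24.4) and 19.8-fold (7.65 to 45.8) higher, and the chromatin factor Atad2 7.47-fold and 9.64-fold. The lamin gene Lmnb1 was 5.00-fold and 6.25-fold higher. Of the 2 genes that did not pass, Asf1a and Set, Asf1a is the paralog of Asf1b and encodes the histone chaperone that is not tied to proliferation.

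Nucleotide supply had 9 of 14 genes compared higher, out of 20. Rrm2, the small subunit of ribonucleotide reductase and the subunit that limits its activity, stood at 41.7 against 4.09 CPM in young cells (10.2-fold, 6.51 to 15.7) and 132 against 8.37 CPM in aged cells (15.8-fold, 9.48 to 25.3). Tk1, thymidine kinase, was 7.54-fold and 11.9-fold higher. Tyms, which makes thymidylate, stood at 150 against 26.2 CPM and 218 against 27.6 CPM, and Rrm1, the large subunit of the reductase, was 4.85-fold and 7.11-fold higher. The 5 genes that did not pass in both libraries were Gart, Impdh2, Nme1, Paics and Shmt1, of which Gart, Paics and Impdh2 act in purine synthesis.

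Of the list of DNA repair at the fork, 2 genes that did not pass are given, and the rest of the list is not described here. Usp1, a deubiquitinase of PCNA, stood at 62.5 against 33.1 CPM in young cells (1.89-fold, 1.39 to 2.52) and 126 against 30.2 CPM in aged cells (4.17-fold, 2.58 to 6.44). Rif1, which sets the timing of origins, was 1.93-fold and 2.33-fold higher, so both stayed under 2-fold in the young library.

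Regulators of the G1 to S step differed less between replicating and other cells, with 3 of 9 compared genes higher out of 20 listed and a median ratio of 1.65 in young and 1.70 in aged cells. Cyclin A2 (Ccna2) stood at 12.3 against 1.98 CPM in young (6.20-fold, 2.70 to 13.0) and 28.7 against 3.02 CPM in aged cells (9.48-fold, 2.87 to 24.7). Cks1b, a partner of these kinases, was 3.21-fold and 3.47-fold higher and Cdk2, the S phase kinase, 2.68-fold and 2.83-fold. Cdk4, the kinase of cyclin D, was 1.95-fold and 1.68-fold higher. E2f1, itself an E2F target, and Ung, the uracil DNA glycosylase, were under the 10 CPM limit and were chosen after their values were seen. E2f1 stood at 50.3 against 3.82 CPM in young and 68.8 against 4.54 CPM in aged cells, and Ung at 110 against 7.32 CPM and 126 against 8.07 CPM.

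Outside the rule and the lists, 12 genes were named by the size of their ratio in both libraries. Tcf19, a gene of the G1 to S boundary, stood at 68.6 against 6.46 CPM in young cells (10.6-fold) and 80.3 against 6.65 CPM in aged cells (12.1-fold). Apitd1, which encodes a histone-fold protein of the centromere and of the Fanconi pathway, was 5.35-fold and 6.32-fold higher. Topbp1, which activates the checkpoint kinase ATR and takes part in origin firing, was 3.75-fold and 4.88-fold higher, and Dtymk, thymidylate kinase, 2.70-fold and 3.65-fold. Dnajc9, a chaperone of histones, was 2.86-fold and 4.47-fold higher and Cenpw, of the inner kinetochore, 3.86-fold and 3.28-fold. Tubulin genes and a tubulin regulator were among them: Stmn1 stood at 892 against 254 CPM and 969 against 174 CPM, Tubb5 was 3.64-fold and 3.20-fold higher and Tuba1b 2.90-fold and 3.30-fold. The remaining 3 were Syce2, Nrm and Siva1, between 2.63-fold and 5.92-fold.

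Genes of differentiation were among those low in replicating cells. Of 9 suprabasal markers compared, out of 13, 6 were at least 2-fold lower in replicating cells in both libraries, and the median ratio was 0.214 in young and 0.218 in aged cells. Krt10, the keratin that replaces the basal keratins as cells leave the basal layer, stood at 360 against 3038 CPM in young and 189 against 3045 CPM in aged cells. Its partner Krt1 stood at 87.0 against 887 CPM and 310 against 2071 CPM. Krtdap, a secreted protein of differentiating keratinocytes, stood at 373 against 2200 CPM and 201 against 2074 CPM, and Mt4, a metallothionein of stratified epithelium, at 53.9 against 410 CPM and 103 against 674 CPM. The lowest ratio among the 6 named low genes outside the lists belonged to the epidermal keratin Krt77, which stood at 98.1 against 528 CPM in young and 5.74 (1 UMI) against 143 CPM in aged cells. Ly6g6c stood at 52.7 against 287 CPM and 28.7 against 139 CPM, and Calml3, Hebp2, Sfrp1 and Tmem159 were 2.08-fold to 3.26-fold lower.

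**Figure D2:**
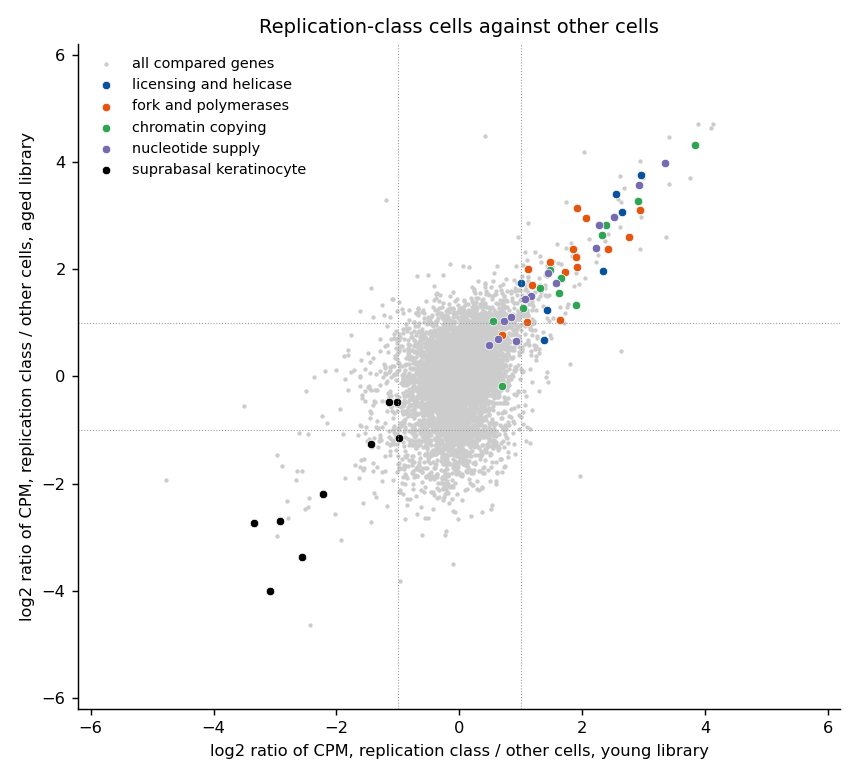
Each point is 1 gene, with the log2 ratio of CPM in replicating over other cells in the young library on the x axis and in the aged library on the y axis, and dotted lines at 2-fold. Of the 6997 genes 6791 are drawn, and 206 at 0 in a class are not. Colored replication genes lie mostly in the upper right, where 40 of 54 passed 2-fold in both libraries, and suprabasal genes (black) in the lower left, where 6 of 9 did.

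Some markers of the upper hair follicle were also lower in replicating cells. Of 10 upper hair follicle markers compared, 3 were lower in both libraries and none was higher: Krt79 at 141 against 878 CPM in young and 80.3 against 272 CPM in aged cells, Defb6 at 1030 against 2388 CPM and 161 against 547 CPM, and Cst6 at 362 against 980 CPM and 80.3 against 526 CPM. Of 10 bulge markers compared, out of 14, none was 2-fold higher or lower in both libraries. Their median ratio to other cells was 1.09 in young and 0.653 in aged cells. Cd34, the bulge surface marker used in the bulk sort, was under the 10 CPM limit and not among these 10. It stood at 9.81 against 35.7 CPM in young cells and 0 against 10.3 CPM in aged cells. Of 14 cycle inhibitors and quiescence genes compared, 1 was lower in both libraries, Trp53inp1, at 17.2 against 34.9 CPM in young and 11.5 against 39.7 CPM in aged cells. Cdkn1a, the p21 inhibitor, stood at 68.6 against 177 CPM in young and 97.5 against 136 CPM in aged cells, where the interval of the ratio (0.417 to 1.15) included 1.

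Of 20 genes of MYC-driven growth and ribosome biogenesis compared, 3 were 2-fold higher in both libraries, with medians of 1.69 and 1.70. They were the nucleolar proteins Nop56 (2.18-fold and 2.17-fold) and Nop58 (2.08-fold and 2.18-fold) and the Ran regulator Ranbp1 (2.34-fold and 2.99-fold). None of 77 ribosomal protein genes passed in either direction. Of 25 genes of G2 and mitosis compared outside the rule, 12 were higher, Mki67 and Hmgb2 among them, although cells with 3 or more of the 7 mitosis genes had been set aside.

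Replicating cells were also compared with the mitosis class. At least 2-fold higher in replicating than in mitosis-class cells in both libraries were 98 of 6997 genes (1.40%), and 227 (3.24%) were lower. The highest included the D cyclins, which act in G1: Ccnd1 stood at 124 against 32.0 CPM in young and 109 against 24.7 CPM in aged cells, and Ccnd2 at 824 against 222 CPM and 665 against 104 CPM. Ctsl, a lysosomal protease, was 6.02-fold and 4.03-fold higher, Fbxo32 3.47-fold and 4.25-fold, Chit1 3.31-fold and 3.54-fold, and the polyamine enzyme Srm 3.22-fold in both. On the low side were Cenpa, the centromeric histone, at 8.58 against 671 CPM in young and 0 against 704 CPM in aged cells, and Ccnb2, a mitotic cyclin, at 3.68 against 374 CPM and 5.74 against 432 CPM. Cdc20, the activator of the anaphase-promoting complex, stood at 7.36 against 521 CPM and 11.5 against 710 CPM. Cdca3, Cenpe and the histone gene Hist1h2ap completed the 6 lowest. The rule set the limit on mitosis genes, so this difference follows in part from the choice of cells.

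The 69 clustered histone genes, whose products package new DNA and whose messages mostly lack a poly(A) tail, summed to 82.1 CPM in young and 166 CPM in aged replicating cells. In the mitosis class they summed to 1545 and 1002 CPM, and in other cells to 182 and 126 CPM. Both replicating sums were thus under those of the mitosis class, while against other cells the young sum was lower and the aged sum higher. Of the aged UMIs 20 came from 6 cells with 2 mitosis genes (831 CPM). The 10x protocol primes on poly(A), and how far it captured these messages was not tested.

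Within the class, levels of some genes followed the number of mitosis genes a cell had. In the young library 86, 40 and 14 cells had 0, 1 and 2 of the 7 mitosis genes, and in the aged library 18, 20 and 6 cells did. Rrm2 stood at 28.4, 43.1 and 111 CPM along these steps in young and 58.2, 98.1 and 457 CPM in aged cells. Tyms stood at 97.2, 211 and 277 CPM and at 116, 221 and 499 CPM. Slbp and Hmgb2, a chromatin protein, had the same order in both libraries, Slbp from 178 to 388 CPM in young and from 189 to 415 CPM in aged cells. Other replication genes did not share this order. Tk1 stood at 66.8, 121 and 111 CPM in young and 43.6, 135 and 0 CPM in aged cells, Dut, which removes dUTP, at 251, 319 and 188 CPM and at 262, 184 and 249 CPM, and Gmnn in young cells at 101.3, 147 and 99.8 CPM. Genes of these steps were chosen after their values were seen.

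Cells with 4 or more genes of each kind, 52 young and 24 aged, lie past the class. Their clustered histone genes summed to 2234 CPM in young and 1965 CPM in aged cells, against 93.2 and 29.1 CPM in replicating cells without a mitosis gene. Gins2 stood at 69.5 and 51.5 CPM there, against 182 and 262 CPM, and Ccnd1 at 20.6 and 34.3 CPM, against 134 and 175 CPM. Helicase subunits differed: Mcm6 stood lower past the class, at 129 and 137 CPM against 194 and 291 CPM, and Mcm7 higher, at 180 and 163 CPM against 124 and 146 CPM. Mcm2 stood at 56.6 and 94.4 CPM against 74.9 and 58.2 CPM. The steps were made from genes of the rule, the last aged step within the class holds 6 cells, and the order is given without a test.

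**Figure D3:**
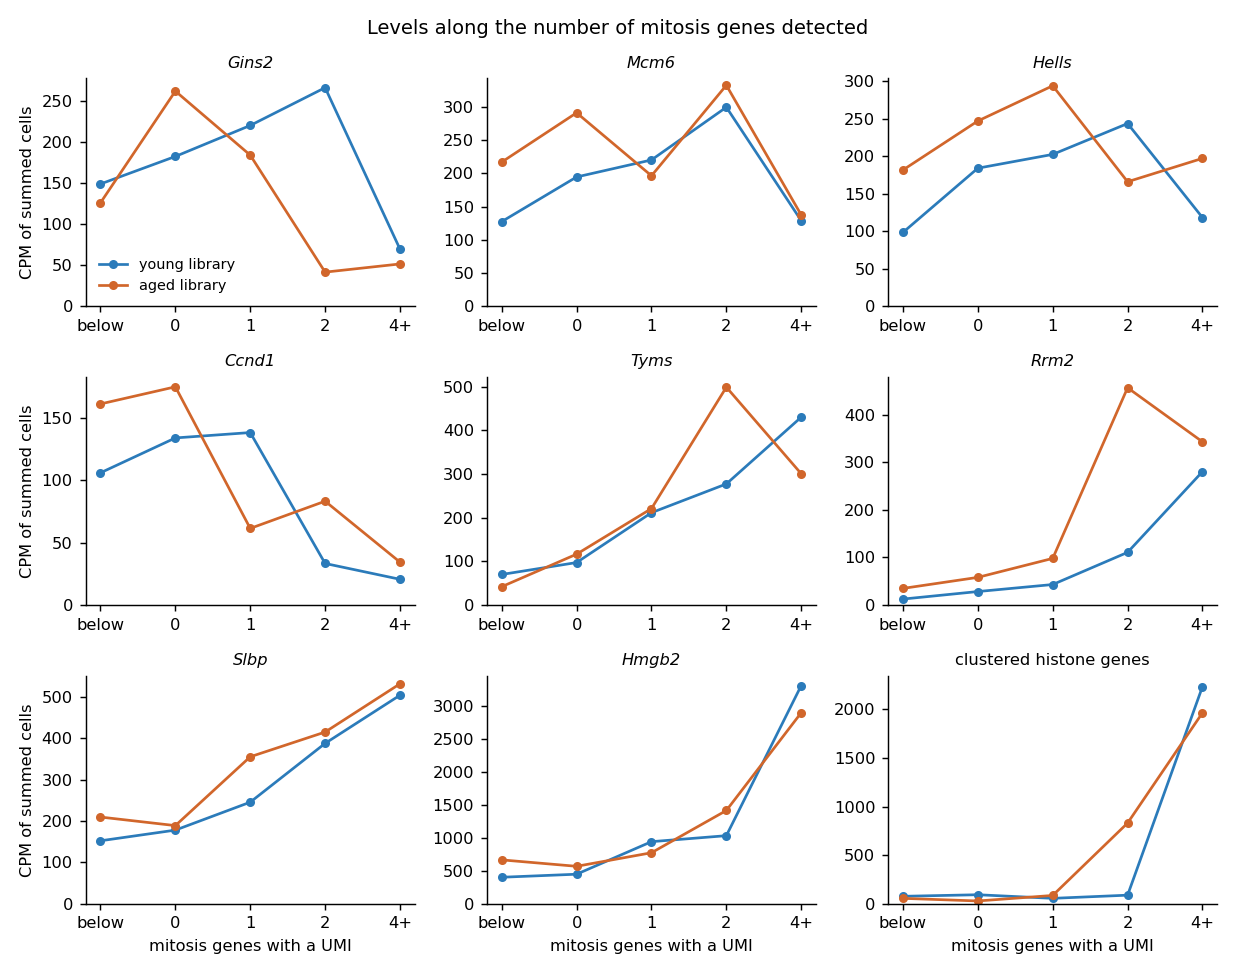
Level of 8 genes and of the summed clustered histone genes, in CPM of all cells of a step, in the young (blue) and aged (orange) library. Steps are cells with 3 replication genes (below), replicating cells with 0, 1 or 2 mitosis genes, and cells with 4 or more genes of each kind (4+). Rrm2 and Slbp climb along the steps within the class, and the histone genes reach 2234 and 1965 CPM in the last.

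Replicating cells of the aged library were compared with those of the young library gene by gene, as a description of these libraries. Among 5174 genes with at least 20 UMIs over both sets of replicating cells, 269 (5.20%) were at least 2-fold higher in aged cells and 498 (9.63%) at least 2-fold lower, and the median ratio was 1.01. The aged cells held 174373 UMIs in all and the young cells 815804, so genes near the limit rest on few aged UMIs. Among 2446 genes with at least 50 UMIs, 65 (2.657%) were higher and 96 (3.925%) lower. Of the 269, 206 were also higher in aged than in young other cells, 24 of them at least 2-fold. Of the 498, 368 were also lower, 38 at least 2-fold. Of 75 replication genes compared from the 5 lists, 11 were higher and 1, Asf1a (60.1 to 28.7 CPM), was lower, with a median ratio of 1.30. Rrm2 was among those higher, with 41.7 CPM in young cells and 132 CPM in aged cells (3.17-fold, 1.78 to 5.53). Its level followed the number of mitosis genes, and 86 of 140 young but 18 of 44 aged replicating cells had none of these. In the cells without a mitosis gene Rrm2 stood at 28.4 CPM in young and 58.2 CPM (4 UMIs) in aged cells. Pola1, the catalytic subunit of polymerase alpha, at 29.4 and 74.6 CPM, and Timeless, the partner of Tipin, at 22.1 and 68.8 CPM, were chosen after their values were seen.

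The summed level of the 96 replication genes depended on depth. Unthinned it was 6714 CPM in young and 8539 CPM in aged replicating cells, a ratio of 1.27 (1.20 to 1.35). With the rule applied after thinning to 2000 UMIs, it was 10014 CPM in 36 young cells and 9818 CPM in 22 aged cells, a ratio of 0.981 (0.868 to 1.11).

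Among the 8 genes named as higher in aged replicating cells, Krt6a, Mmp3 and Thy1 had the largest ratios. Krt6a, a keratin of wounded skin and follicles, stood at 7.36 CPM in the young and 499 CPM in the aged replicating cells (67.8-fold, 29.9 to 190), and in other cells its ratio was 3.00. In the aged library 44 of its 87 UMIs came from 1 cell and the rest from 11 cells, and without that cell it stood at 253 CPM. Mmp3, a matrix metalloprotease, stood at 2.45 CPM (2 UMIs) and 132 CPM (53.8-fold, 13.3 to 471), with a ratio of 4.80 in other cells. Thy1, a surface glycoprotein, stood at 30.6 and 304 CPM (9.92-fold, 6.06 to 16.7), with a ratio of 4.19 in other cells. All 4 of the compared genes of wounded and activated keratinocytes (Krt6a, Mmp3, Serpinb7 and Thy1) were higher, from a list chosen with these differences known.

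Of the other 5 named genes, Dhx36 and Irf2bp1 each stood at 11.0 and 63.1 CPM (5.72-fold, 2.15 to 15.6) with ratios of 0.958 and 0.978 in other cells. Mmp2 was 5.15-fold higher, Mapk8 4.68-fold and Il22ra2 4.40-fold, with ratios of 1.39, 1.26 and 2.40 in other cells. Krt14 and the integrin gene Itgb4 were the 2 of 14 basal markers that were higher, Itgb4 at 109 and 229 CPM, and none was lower.

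Among the 8 genes named as lower in aged replicating cells were a clock gene and genes of the upper follicle. Dbp, an output gene of the circadian clock, stood at 103 CPM in young and 5.74 CPM (1 UMI) in aged cells, a young-to-aged ratio of 18.0 (3.14 to 718), and 4.78 in other cells. Defb6, a defensin of the upper follicle, stood at 1030 and 161 CPM, a ratio of 6.41 (4.40 to 9.71), and 4.36 in other cells. In the young library 304 of its 840 UMIs came from 1 cell, and without that cell it stood at 664 CPM. Krt77, Iffo2, Ddit4 and Prpf8 each had 1 UMI in aged cells and young-to-aged ratios of 17.1 (2.98 to 684), 10.9 (1.87 to 439), 9.41 (1.60 to 380) and 8.76 (1.49 to 355). Abi3bp and Stfa3 had 2 UMIs each and ratios of 7.91 (2.11 to 66.5) and 6.73 (1.79 to 56.8). In other cells Ddit4, Prpf8 and Abi3bp had ratios of 0.893, 1.10 and 1.05. In Stfa3, 36 of the 63 young UMIs came from 1 cell.

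Immediate early genes, which rise within minutes of stress or growth signals and also during tissue dissociation, were lower in aged cells of both kinds. Of 16 compared, 8 were at least 2-fold lower in aged replicating cells and none was higher. Their median ratio was 0.506, and their summed level was 0.555 of the young level, against 0.570 in other cells. Fos stood at 612 and 264 CPM and Jun at 384 and 143 CPM. The age of the mouse, the preparation and the library cannot be told apart.

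Clusters built without the genes of the cell cycle lists showed where replicating cells lay. Of 16 clusters, suprabasal-like cells, named from their markers, held 1 replicating cell among 486 young and 0 among 703 aged cells, although they had medians of 5462 and 3111 UMIs, above those of all kept cells. By a limit of 3 counts, the 0 of 703 allows a share of up to 0.427%. The upper hair follicle-like cluster held 1 of 442 and 0 of 187, which allows up to 1.60%. The bulge-like cluster, led by S100a4 and Cd34, held 4 of 281 young cells (1.42%, 0.389 to 3.60) and 0 of 212 aged cells, which allows up to 1.42%, at medians of 2520 and 1444 UMIs.

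All clusters outside these and the sebaceous-like cluster (2 of 43 and 1 of 85) held 132 of 2793 young cells (4.73%, 3.97 to 5.58) and 43 of 3164 aged cells (1.36%, 0.985 to 1.83). Thinned to 2000 UMIs, they held 34 of 2610 (1.30%, 0.904 to 1.82) and 21 of 1941 (1.08%, 0.671 to 1.65). Among them were a cluster led by Ube2c, Nusap1 and Top2a and one led by Top2a and Cenpf. In these, 94.0% to 100% of the cells of each library were in the mitosis class, which the rule keeps out of the replication class. A further cluster, led by Ifi27l2a, Cdkn3 and Cenpa, held 0 replicating cells among 149 young and 100 aged cells. Of its cells 17.45% in the young and 26.0% in the aged library were in the mitosis class. The clusters thus still followed the cycle phase in part, although the listed genes were left out. The young cells came mainly from a cluster led by H2-M2, Cbr2 and Slco2a1 (44 of 870, 5.06%) and one led by Sostdc1, Vsnl1 and Hpgd (39 of 812, 4.80%). The aged cells came mainly from a cluster led by Gpnmb, Mmp3 and Thy1 (24 of 1574, 1.53%). A young cluster led by Fam13a, Cldn10 and Mfap2 had a share of 14.3% unthinned (13 of 91, 7.83 to 23.2), and at 2000 UMIs 2.33% (2 of 86), under other clusters such as the young one led by Aspn, Pthlh and Tm4sf1 (5 of 199, 2.51%). Most of these clusters came largely from 1 library, and cluster and library cannot be told apart.

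**Figure D4:**
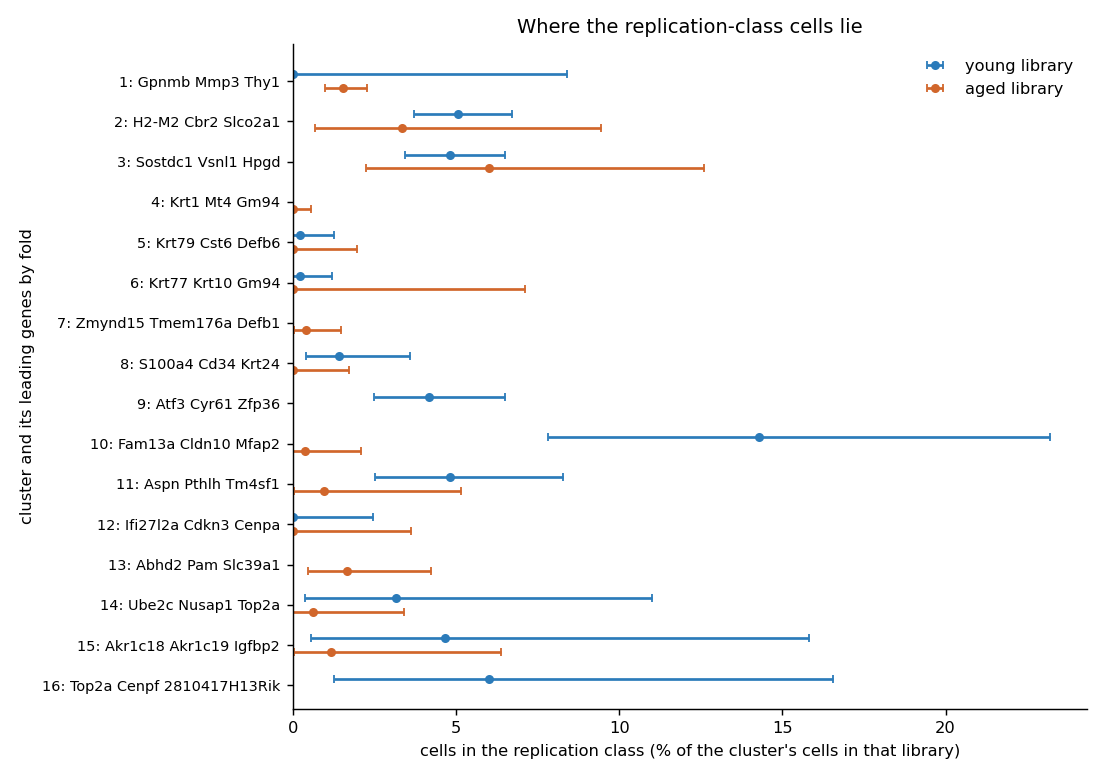
Share of cells in the replication class (%, x axis) with exact binomial 95% intervals, for each of 16 clusters (y axis, with the leading genes) in the young (blue) and aged (orange) library, where a library has 40 or more cells in the cluster. Suprabasal-like clusters 4 and 6 and upper follicle-like cluster 5 lie near 0, and cluster 10 has 14.3% in the young library.

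Bulk stem cells, which had no part in choosing the cells, gave the test with replicates. The 8 libraries held 25126808 to 35905505 counts each, and 21464 genes were tested with edgeR's quasi-likelihood test, calling genes at a Benjamini-Hochberg adjusted p under 0.05. Whether replicates are separate mice is not stated in the labels, so these p-values rest on a spread that may be technical. In bulk RNA, more cells in S phase and more RNA per cell cannot be told apart.

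Bulk EpdSC were compared with HFSC at each age. Mcm6 stood at 63.6 and 80.3 CPM in the young HFSC libraries and at 84.6 and 137 CPM in young EpdSC, and at 72.6 and 83.8 CPM in aged HFSC and 98.8 and 208 CPM in aged EpdSC. Its log2 difference was 0.67 (SE 0.30) in young mice with an adjusted p of 0.125 in edgeR, and 1.04 (SE 0.30) with an adjusted p of 0.0237 in aged mice. The libraries did not overlap at either age. Pcna differed by 0.79 (SE 0.22) in aged mice, adjusted p 0.0218, and Uhrf1 by 1.15 (SE 0.36), adjusted p 0.0392. These calls rested on single libraries. Without aged EpdSC replicate 2 the differences of Mcm6, Pcna and Uhrf1 were 0.48, 0.46 and 0.48 with edgeR adjusted p of 0.278, 0.225 and 0.414, and without aged HFSC replicate 1 the adjusted p were 0.123, 0.139 and 0.145. Mcm5 stood at 16.95 and 33.3 CPM in young HFSC, 24.2 and 43.7 in young EpdSC, 26.3 and 35.8 in aged HFSC and 30.2 and 95.8 in aged EpdSC, and its groups overlapped at both ages. None of the 9 genes was called in young mice, where 1 had an unadjusted p under 0.05 and DESeq2 also called 0. Without a filter on low counts edgeR called 4 in young mice (Hells, Mcm3, Mcm6 and Uhrf1) and 8 in aged mice, and with either aged EpdSC library left out it called Mcm6 in young mice.

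Over the 105 replication genes of the rule and the lists, 16 were called higher and 3 lower in young EpdSC than in young HFSC, where 26.1% of all genes were called. Without young HFSC replicate 1 the counts were 9 and 1. The 3 lower were Dut, Pole2 and Rrm2, named after their values were seen. In aged mice 28 were called higher and none lower, where 24.1% of all genes were called. The median log2 difference of these genes was 0.30 in young and 0.54 in aged mice, against -0.06 and -0.09 over all genes. These shares of all genes count both directions. Of the 21464 genes, 2788 were called higher and 2812 lower in young EpdSC, and 2628 higher and 2552 lower in aged EpdSC. Counted in either direction, the replication genes called in young mice lay under the background share and those in aged mice close to it. All 28 calls in aged mice were higher in EpdSC, while the calls over all genes were split between the directions. The 7 mitosis genes of the rule were all called higher in EpdSC at both ages, with median differences of 1.51 and 1.55.

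With age, none of the 105 replication genes was called in either population by edgeR, where 0.368% of all genes were called in HFSC and 0.0839% in EpdSC. At an unadjusted p under 0.05 there were 3 in HFSC and 18 in EpdSC, and DESeq2 called 0 and 1. The median log2 change was 0.13 in HFSC and 0.37 in EpdSC, and 97 of the 105 were higher in aged EpdSC. One aged EpdSC library carried much of this. The 9 genes of the rule summed to 318.5 CPM in aged EpdSC replicate 1 and to 702.6 CPM in replicate 2, against 269.6 and 422.3 CPM in young EpdSC, and replicates overlapped between ages. The mitosis genes ran the other way in the aged EpdSC libraries, at 520.1 CPM in replicate 1 and 330 CPM in replicate 2. In young EpdSC they also ran the other way, at 669.2 CPM in replicate 1 and 354.3 CPM in replicate 2. The 9 genes were higher in replicate 2 of HFSC too, young (218.1 and 284.9 CPM) and aged (258.8 and 297 CPM). HFSC mitosis genes stood at 209.1 and 227.9 CPM in young and 228.7 and 97.01 CPM in aged libraries. Without aged EpdSC replicate 2 the median change with age was 0.04 and the number called higher in aged EpdSC than in aged HFSC was 9 in place of 28, and without replicate 1 it was 43. Without aged HFSC replicate 1 it was 14.

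**Figure D5:**
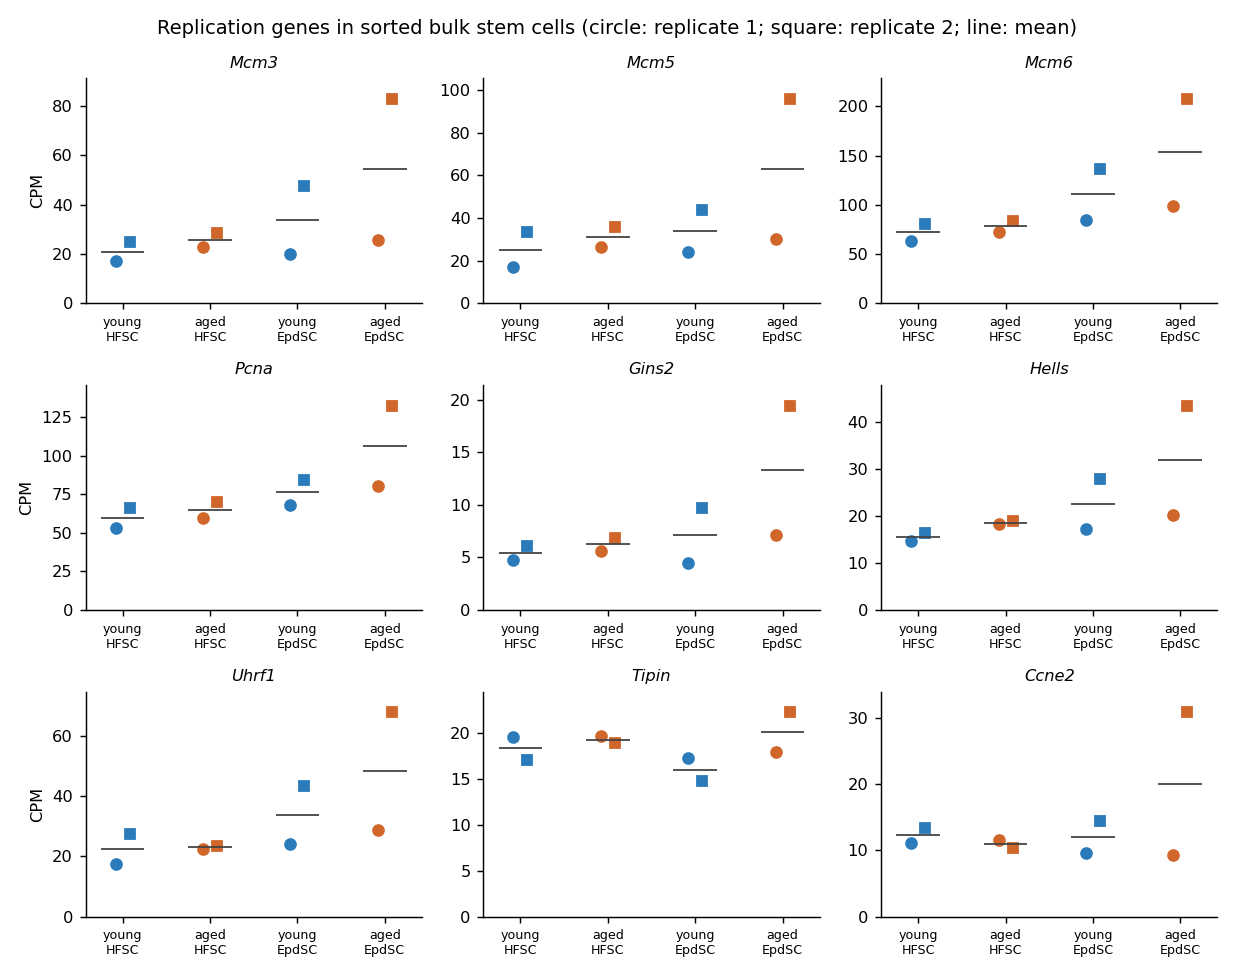
Level of the 9 replication genes of the rule in CPM (y axis, from 0) in bulk HFSC and EpdSC of young (blue) and aged (orange) mice, with replicate 1 as circles, replicate 2 as squares and the mean as a line. For 8 of the 9 genes aged EpdSC replicate 2 is the highest library by a wide margin, for Mcm6 at 208 CPM, and for Tipin it is the highest by a small margin.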

How the data were processed

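The members, the gene lists and the tests were chosen with earlier results of these data known. For the single-cell libraries the authors deposited raw UMI counts per gene and barcode, 737280 barcodes in each, without a cell filter. The labels speak of 4000 captured cells per library, and 4045 young and 4351 aged barcodes passed the limits used here. For bulk RNA the authors deposited raw whole-number counts of reads for each gene. Per the submitters' processing notes, the tools were Cell Ranger, STAR and Bowtie (versions not listed) and the build mm10. For the annotation and the strand setting of the counting nothing is given in the sources used here, so reads of overlapping or antisense genes and of near-identical copies were not separated. The labels give the mouse strain under 2 names, so none is stated. ATAC-seq libraries were not used here.

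Counts of a class were summed within a library and divided by its total. Ratios have exact conditional 95% intervals for counting error, with no test, since each age is 1 library. Genes compared between classes had at least 10 CPM over all kept cells in each library, and genes compared between ages at least 20 UMIs over the replicating cells. A gene passed at 2-fold, in both libraries where classes were compared. Named genes were the 16 genes of the rule and up to 4 of each list with the largest smaller ratio. Outside the lists the 12 highest and 8 lowest by that ratio were named, with at least 50 CPM in the higher class of both libraries, which left 6 on the low side. Against mitosis cells 6 were named in each direction, and between ages 8 in each direction with an interval excluding 1 and at least 50 CPM. A few results are not reported here. Other genes are named as chosen after their values were seen, or complete a count of 5 or fewer or a list's members past the fold.

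Clusters were built with scanpy 1.11.5 and leidenalg 0.10.2 in Python 3.11.15, after 247 cell cycle, histone and mitochondrial genes were left out (2000 variable genes, 30 principal components, 20 neighbours, resolution 1). A cluster was named when at least 2 markers were among its top 10 genes by fold and the markers' summed CPM was at least 5-fold that of other cells, a rule set after seeing the data. Scrublet marked 3 young and 1 aged cell as doublets, none replicating, which is too few for the caller to have worked, so no doublets were removed. Bulk counts were tested in edgeR 4.0.16 (R 4.3.3) with TMM scaling and filterByExpr, in a single model of the 8 libraries with 1 coefficient for each group, and with DESeq2 1.42.0 as an alternative. Standard errors are the absolute log2 difference over the square root of F. Replicate numbers were checked for pairing. Over the genes that passed the filter, deviations of same-numbered libraries correlated between -0.213 and 0.174, so the numbers were not treated as pairs. The summed 9 replication genes of the rule were higher in replicate 2 in every group. A shift shared by same-numbered libraries was not tested separately for these genes, and a fit with a replicate block is among the alternatives. Promoter sequences came from RefSeq (GRCm38.p6). The scripts were tested on simulated data. Alternatives varied depth, the rule's thresholds, filters, weighting, clustering and bulk design and left out each bulk library in turn.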

Additional observations from a re-analysis of the deposited data

How the results depend on the processing

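The share of replicating cells followed the depth and the threshold. Thinning to 1000 UMIs gave 0.198% young and 0.0690% aged, to 2000 UMIs 0.964% young and to 3000 UMIs 2.23% and 2.43%. At least 3 replication genes gave 6.18% and 2.05%, at least 5 gave 1.98% and 0.598%, and no limit on mitosis genes gave 4.97% and 1.63%. Cells of 2000 UMIs or more, unthinned, gave 3.695% in the young (3.11 to 4.35) and 1.57% in the aged library (1.14 to 2.10). Against other cells, genes at least 2-fold higher and lower numbered 29 and 15 at a 50 CPM limit and 484 and 2725 without a limit. Aged against young, they numbered 65 and 96 with at least 50 UMIs, 967 and 1680 with at least 5 UMIs, and 113 and 180 in thinned cells, of which 45 and 60 were among the 269 and 498. Thinning left 0% of young suprabasal-like and 0% of young sebaceous-like cells and 1.30% of young cells in the other clusters. Of 1788 gene ratios under alternatives 107 left their interval and 1 reversed, Orc2 in aged cells without the 5% deepest cells (log2 ratio -0.32). Alternatives that remove doublets were not run. In bulk, called replication genes ranged over libraries left out from 9 to 19 higher and 1 to 3 lower in young mice, from 9 to 43 higher in aged mice and from 0 to 0 with age. Without a count filter 46 were higher in aged mice and 5 with age in EpdSC, where DESeq2 called 1. With the replicate block 20 were higher and 3 lower in young mice and 36 higher in aged mice (of the 9 genes of the rule, Mcm6 in young and 7 in aged mice), and 0 changed with age in EpdSC. The aged counts have 44 cells at a median of 3928 UMIs, which limits every ratio with few UMIs.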
